A study of Mus musculus with 6 samples.

Results

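The genes described here are 8 neighbouring members of the serpin family on mouse chromosome 12, taken by name from the 40824 genes counted: Serpina1a, Serpina1b, Serpina1c, Serpina1d, Serpina1e, Serpina1f, Serpina10 and Serpina12. They were followed in 1567 single hepatocyte nuclei from female wild-type (WT) C57BL/6J mice, mated at about 8 weeks of age. The 3 stages were G0 (day 0 of gestation), G14.5 (gestation, numbered by its day) and P7L (day 7 after birth, lactating), and each had 1 library made from liver tissue and 1 made by perfusion, which is 6 libraries. No genetic change or drug distinguishes the groups. The series asks how the hepatocytes of the mother change state through gestation and lactation. The labels name no animals, so it is unknown whether a library holds 1 mouse or several, and the p-values measure only the spread between these 6 libraries.

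Serpins are protease inhibitors that offer a flexible reactive centre loop as bait. A protease that cuts the loop is trapped, and the sequence of the loop decides which proteases are caught. Human SERPINA1 encodes alpha-1 antitrypsin, an abundant plasma protein made by hepatocytes that inhibits neutrophil elastase. Humans have a single such gene, whereas C57BL/6J mice carry the near-identical copies Serpina1a to Serpina1e. Serpina10 encodes the protein Z-dependent protease inhibitor, which blocks the activated coagulation factors X and XI. Serpina12 encodes vaspin, a secreted inhibitor of the kallikrein Klk7 first described in fat tissue.

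The 8 genes lie on the minus strand of chromosome 12 (GRCm38, GENCODE M21 annotation) in a stretch of 430 kb. Serpina10 (chr12:103614786-103631444) stands at one end, followed by Serpina1f (chr12:103688044-103695529), Serpina1b (chr12:103728156-103830373) and, inside the annotated span of Serpina1b, Serpina1d (chr12:103763594-103773592). Serpina1a (chr12:103853589-103863562), Serpina1c (chr12:103894926-103904887), Serpina1e (chr12:103946931-103958975) and Serpina12 (chr12:104028769-104044443) come next. The coding sequences of Serpina1a to Serpina1e are each 1239 bases long and were 96.3% to 98.5% identical in pairs. The closest pair was Serpina1a and Serpina1c, which differ at 19 positions. Serpina1f, Serpina10 and Serpina12 were at most 57.6% identical to any of the 5 copies.

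The reactive centre loops of the copies (coding bases 1087 to 1167, from GENCODE M21 transcripts, 5′ to 3′) are shown because the share of reads from each copy, and so from each loop, differed by stage; capitals mark the positions at which the 5 copies are not all the same.
Serpina1e: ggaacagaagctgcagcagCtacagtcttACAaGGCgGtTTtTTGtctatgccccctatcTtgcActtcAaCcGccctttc
Serpina1a: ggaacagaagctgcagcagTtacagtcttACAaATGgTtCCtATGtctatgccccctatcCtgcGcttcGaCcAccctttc
Serpina1b: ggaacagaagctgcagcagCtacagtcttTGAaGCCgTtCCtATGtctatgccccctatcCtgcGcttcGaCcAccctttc
Serpina1c: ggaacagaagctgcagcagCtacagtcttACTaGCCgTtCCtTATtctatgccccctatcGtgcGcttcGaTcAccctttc
Serpina1d: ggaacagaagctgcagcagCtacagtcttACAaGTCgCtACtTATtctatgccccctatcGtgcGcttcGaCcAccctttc
Of the 81 loop bases, 18 (22.2%) varied among the copies, against 68 of the other 1158 coding bases (5.87%). Serpina1e differed from each other copy at 10 to 12 loop positions, and the other 4 copies differed from one another at 5 to 10.

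Upstream sequence was compared in RefSeq promoters of 300 bases. Aligned whole, the promoter of Serpina1e was 63.3% to 69.3% identical to those of the other copies, which were 85.2% to 91.4% identical to one another. When the promoters were instead lined up on a shared motif the copies were closer. The windows below hold 100 bases around the letters GTTAAT (capitals), one arm of the palindrome bound by the liver factor HNF1, in these promoters of GRCm38.p6, minus strand, 5′ to 3′; they are shown because Serpina1e changed far more than the other copies while this stretch differs at few positions.
Serpina1e, chr12:103956936-103957035: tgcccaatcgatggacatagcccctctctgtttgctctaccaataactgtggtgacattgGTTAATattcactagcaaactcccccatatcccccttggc
Serpina1a, chr12:103863601-103863700: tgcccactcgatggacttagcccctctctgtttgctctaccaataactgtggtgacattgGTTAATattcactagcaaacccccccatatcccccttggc
Serpina1b, chr12:103738176-103738275: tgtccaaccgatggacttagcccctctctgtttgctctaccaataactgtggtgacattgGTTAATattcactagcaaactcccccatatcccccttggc
Serpina1c, chr12:103904938-103905037: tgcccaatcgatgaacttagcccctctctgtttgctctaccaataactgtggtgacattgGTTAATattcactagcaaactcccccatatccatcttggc
Serpina1e differed from Serpina1a and Serpina1b at 3 of these 100 positions each and from Serpina1c at 4. Over the longest stretch around GTTAAT that all 5 copies have, 238 bases, Serpina1e was closest to Serpina1b, at 96.7% identity. GTTAAT occurs once in each of the 5 copies, on the strand of the gene, and in 7.10% of 32851 RefSeq promoters of 300 bases, searched on both strands. The RefSeq start lies 78 bases downstream of it in Serpina1e and 16 to 27 bases downstream in the other copies. For Serpina1b and Serpina1e the RefSeq start lies inside the GENCODE M21 span given above, whose annotated start is farther upstream.

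The promoter of Serpina1f was not aligned to these and holds 1 match to TTCNNNGAA, the pattern read by STAT5, a factor that growth hormone and prolactin receptors activate. It is printed with that match in capitals.
Serpina1f, chr12:103695593-103695652: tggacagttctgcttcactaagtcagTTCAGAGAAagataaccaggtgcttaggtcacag
TTCNNNGAA was found in 8.30% of all promoters of this length (both strands) and in no other of the 7 members matched in the RefSeq table. The full HNF1 palindrome, the HNF4 pattern TGNACTTTG and the C/EBP palindrome TTGCGCAA were in none of the 7. The looser C/EBP pattern TTNNGCAA was in 6 of them, all but Serpina1c, and in 10.8% of all promoters. Serpina10 had no promoter in the table. A match to letters is a description and shows no bound factor.

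The libraries held 184 to 308 nuclei and 226030591 to 379767336 reads each, and no ERCC spike-in control had a read, so levels are relative to the other RNA of the same nuclei and an amount of RNA per nucleus cannot be given. Levels are counts scaled to a common library size (CPM, on the TMM scale), and library values are given with liver tissue before perfusion. The 10 hepatocyte markers made up 1.57% to 2.06% of reads, and none of them was at 0 in any library. Each of the marker lists of 7 other cell types made up at most 0.00434% of reads. Of the 8 genes, 7 passed the filter on low counts and were tested. Serpina1d was listed at 0 reads in every library and was not tested. Nuclei are numbered rather than given by barcode, and 0 pairs of nuclei held identical counts. Serpina1f passed only through the G14.5 libraries, so that its difference from the other stages was built into its entry, and no p-value is given for it.

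The 0 of Serpina1d is a listed value and does not show that the gene is silent. Serpina1d and the pseudogenes Gm17042, Gm17043 and Gm8893 all lie inside the annotated span of Serpina1b on the same strand, and all were at 0. In the whole table, 303 of 355 protein-coding genes (85.4%) that lie inside another gene on the same strand had 0 reads in the 6 libraries, as had 636 of 756 (84.1%) inside a gene on the other strand only, against 1828 of 11078 (16.5%) that overlap no gene. The other copies could also share reads. All 100-base windows in 1 coding transcript per gene were sought in the annotated transcripts of every other gene. Of these windows, 39.0% of those of Serpina1a, 41.5% of Serpina1c, 79.4% of Serpina1b and 85.2% of Serpina1e occurred in no other gene. How the authors' counting treated reads that fit several copies is not given in the sources used here. The sum of the copies was therefore tested beside the single rows.

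At G14.5 most of these inhibitors made up a larger part of the RNA read from hepatocyte nuclei than at G0. Summed over the 5 copies, the level was 1318 and 1283 CPM in the G0 libraries, 2516 and 2343 CPM in those at G14.5 and 1184 and 1345 CPM in the P7L libraries. Both G14.5 libraries lay above all 4 others, and the G0 and P7L libraries overlapped. The sum was 1.87-fold higher at G14.5 than at G0 (log2 fold change 0.90 ± 0.11 SE, adjusted p = 0.00426 by edgeR's quasi-likelihood test with Benjamini-Hochberg adjustment), with 0.93 in liver tissue and 0.87 in perfusion. At P7L it was lower than at G14.5 by a log2 fold change of -0.94 ± 0.11 (adjusted p = 0.00343), and without the P7L liver tissue library this became -0.81 with an adjusted p of 0.0553. P7L and G0 differed by -0.04 ± 0.11 (adjusted p = 0.863).

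**Figure D1:**
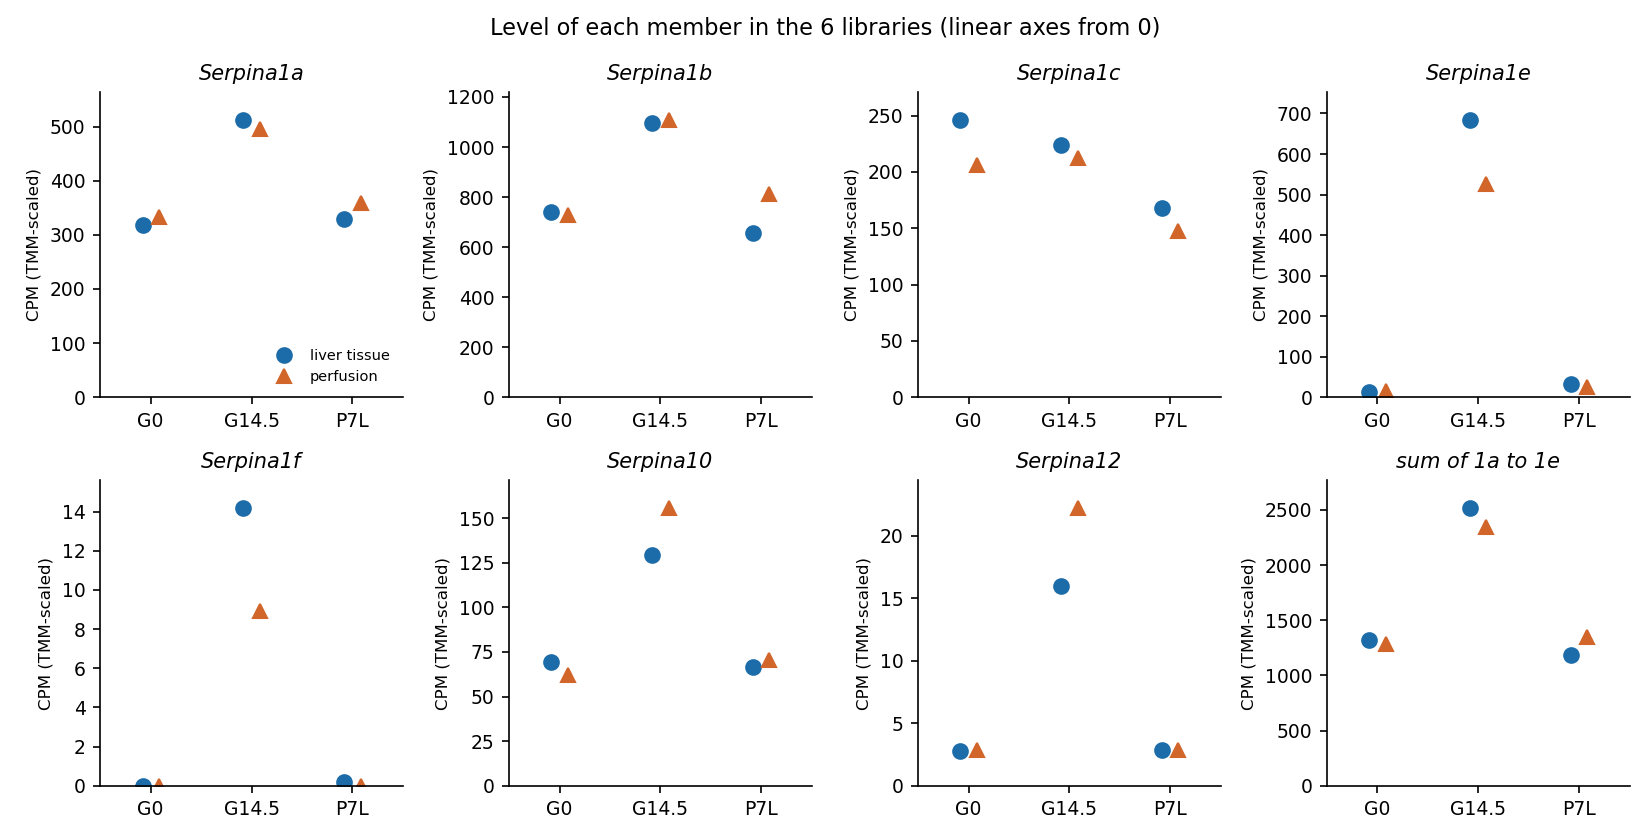
Level of 7 members and of the sum of Serpina1a to Serpina1e (CPM on the TMM scale, linear axes from 0) in each of the 6 libraries by stage; circles are liver tissue and triangles perfusion. Both G14.5 libraries stand above the other 4 in every panel but that of Serpina1c, whose 4 libraries at G0 and G14.5 overlap.

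Serpina1e rose the most of the copies. Its level was 12.4 and 14.4 CPM in the G0 libraries, 685 and 527 CPM in those at G14.5 and 31.4 and 24.4 CPM in the P7L libraries, so the 3 stages did not overlap. Its level was 44.6-fold higher at G14.5 than at G0 (log2 fold change 5.48 ± 0.22, adjusted p = 4.52e-05), with 5.79 in liver tissue and 5.19 in perfusion. At P7L it was below G14.5 by a log2 fold change of -4.44 ± 0.21 (adjusted p = 7.99e-05) and 2.06-fold above G0 (1.04 ± 0.18, adjusted p = 0.0347). The call at P7L against G0 was made in 9 of 16 alternatives. It was lost with either P7L library left out, with filterByExpr alone, with no filter, by limma-voom and on the authors' values with either pseudocount (adjusted p 0.0538 to 0.185 in these).

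Serpina1a and Serpina1b, the copies with most reads at G0, moved by less. Serpina1b had 740 and 729 CPM in the G0 libraries, 1094 and 1109 CPM in those at G14.5 and 655 and 814 CPM in the P7L libraries. Serpina1a had 319 and 334 CPM in the G0 libraries, 513 and 495 CPM in those at G14.5 and 330 and 359 CPM in the P7L libraries. For both genes the G14.5 libraries lay above all others. Serpina1b was higher at G14.5 than at G0 by a log2 fold change of 0.58 ± 0.12 (adjusted p = 0.0266), and Serpina1a by 0.63 ± 0.12 (adjusted p = 0.0172). On the authors' length-scaled values by limma neither was called, with 0.42 and 0.43 for Serpina1b (adjusted p = 0.105 and 0.0746 with pseudocounts of 1 and 0.1) and 0.36 for Serpina1a with both (adjusted p = 0.1 and 0.0814). Both were lower at P7L than at G14.5, with log2 fold changes of -0.59 ± 0.12 (adjusted p = 0.0287) for Serpina1b and -0.55 ± 0.12 (adjusted p = 0.0301) for Serpina1a. That call was made in 8 of 16 alternatives for Serpina1b and in 9 of 16 for Serpina1a.

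Serpina1c did not follow. Its values were 246 and 206 CPM in the G0 libraries, 224 and 212 CPM in those at G14.5 and 168 and 147 CPM in the P7L libraries, so G0 and G14.5 overlapped and both P7L libraries were the lowest. The difference between G14.5 and G0 was -0.05 ± 0.13 (adjusted p = 0.85). That of P7L from G0 was -0.52 ± 0.13 (adjusted p = 0.0829) and that of P7L from G14.5 -0.47 ± 0.13 (adjusted p = 0.0699), neither past the threshold of 0.05. A test of the difference between copies within a stage comparison was not made.

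With these unequal changes the make-up of the family shifted. Of the reads of the 5 copies, Serpina1e held 0.939% and 1.12% in the G0 libraries, 27.2% and 22.5% in those at G14.5 and 2.65% and 1.81% in the P7L libraries. The share of Serpina1b was 56.2% and 56.8% in the G0 libraries, 43.5% and 47.3% in those at G14.5 and 55.3% and 60.5% in the P7L libraries. Serpina1a held 24.2% and 26.0% in the G0 libraries, 20.4% and 21.1% in those at G14.5 and 27.9% and 26.7% in the P7L libraries. Of the 4 copies with reads, Serpina1e alone had a larger share in both G14.5 libraries than in both G0 libraries. Serpina1c had 18.7% and 16.0% in the G0 libraries, 8.91% and 9.05% in those at G14.5 and 14.2% and 10.9% in the P7L libraries. In both G14.5 libraries Serpina1e, and with it the loop printed first above, had more reads than Serpina1a.

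**Figure D2:**
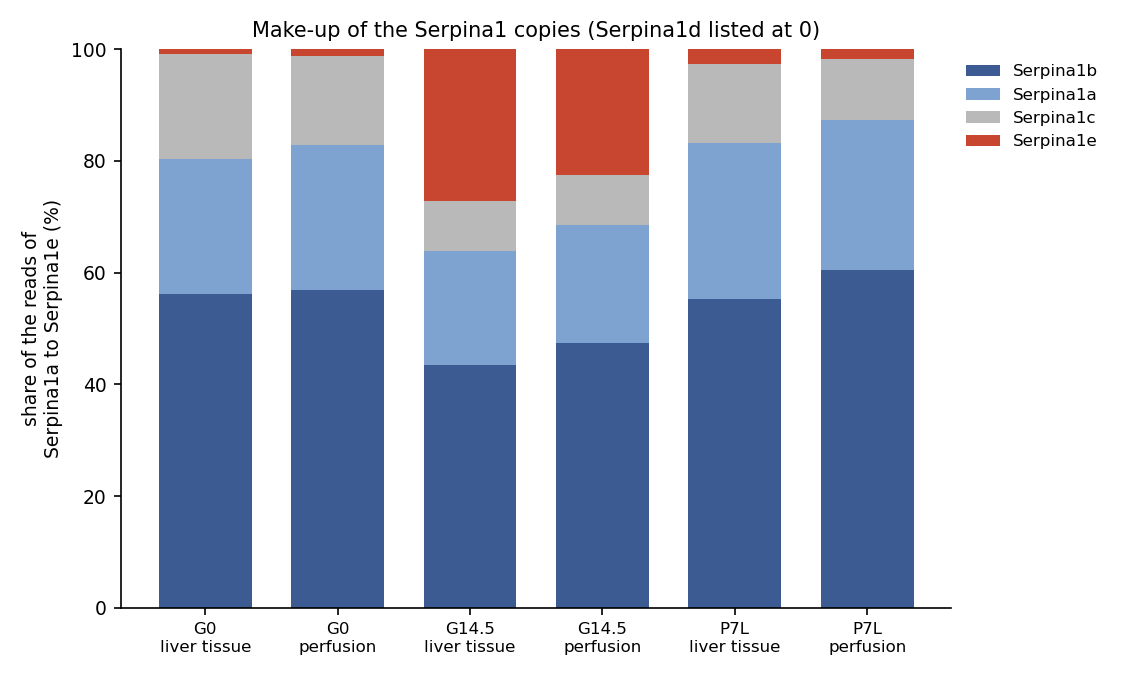
Share (%) of the reads of Serpina1a to Serpina1e that each copy held in the 6 libraries. The Serpina1e segment is 27.2% and 22.5% in the G14.5 libraries and at most 2.65% in the other 4, and Serpina1d is listed at 0.

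The shift was present across single nuclei. The median nucleus drew 23.6% (liver tissue; 95% interval 20.6% to 26.1%) and 18.2% (perfusion; 16.3% to 20.6%) of its copy reads from Serpina1e at G14.5, against 0.523% (0.454% to 0.614%) and 0.432% (0.369% to 0.531%) at G0. At G14.5 the 10th and 90th percentiles of nuclei were 9.92% and 40.2% in liver tissue and 4.12% and 44.0% in perfusion. The intervals treat nuclei of a library as the sampled unit and hold no spread between animals. Nuclei were then compared at an equal depth of 250000 reads, without the 35 nuclei that had fewer. Serpina1e was read in 100% of 224 and 100% of 300 nuclei at G14.5, against 71.7% of 237 and 69.6% of 181 at G0, or 92.9% and 94.0% at G0 before thinning. At P7L the shares were 92.9% of 294 and 85.1% of 296. At G0 the reads were uneven, since the 10 nuclei with most reads held 41.6% and 61.0% of all Serpina1e reads, against 18.4% and 15.9% at G14.5. Serpina1a, Serpina1b and Serpina1c were read in at least 99.7% of the thinned nuclei of every library, so a difference in the share of nuclei could not be seen for them.

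**Figure D3:**
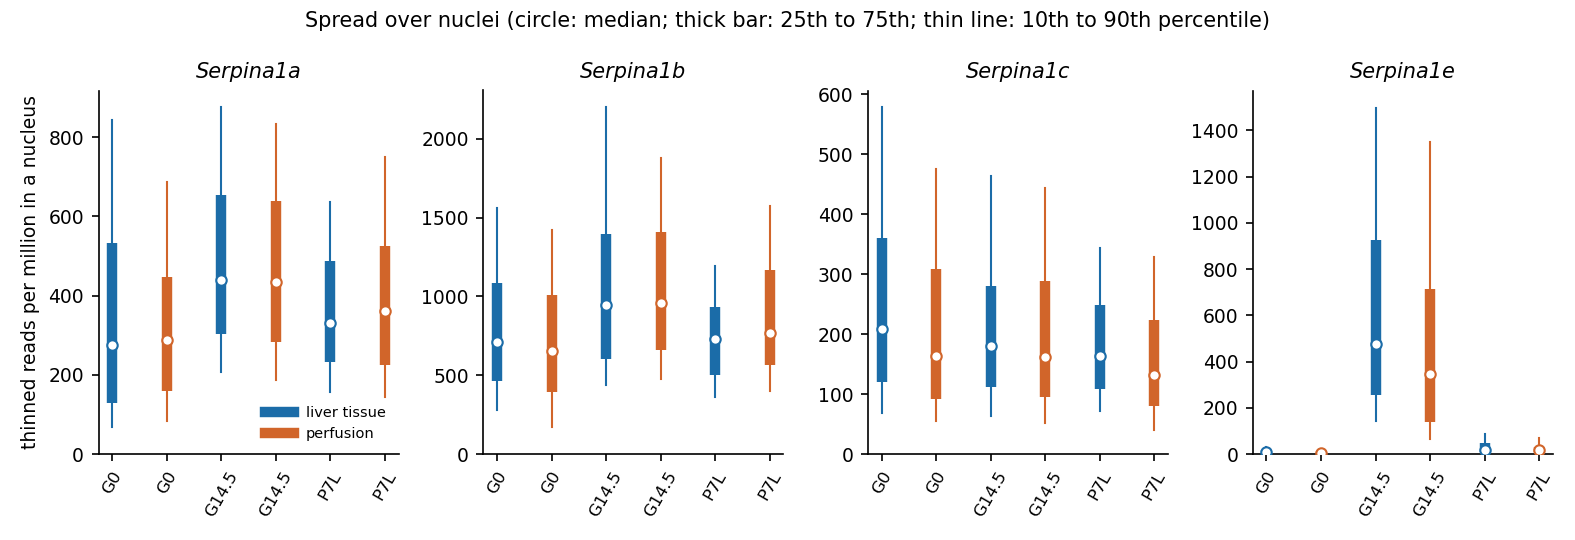
Level (CPM after thinning) in single nuclei of each library for the 4 copies with reads, with liver tissue left of perfusion at each stage; circles are medians, thick bars span the 25th to 75th and thin lines the 10th to 90th percentile. For Serpina1e the G0 medians are 8 and 4, those at G14.5 are 476 and 346, and the P7L medians are 20 and 16, and the ranges of the other copies overlap between stages.

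Serpina1f, a more distant relative of the copies, was read almost only at G14.5. The G0 libraries had 0 and 0 reads of it, those at G14.5 had 3555 and 3071 reads (14.2 and 8.90 CPM) and the P7L libraries 56 and 1 reads, where the 56 reads came from 2 nuclei. With a floor of 3 reads put in for each G0 library, its level at G14.5 was 1070.5 times that floor in liver tissue and 746 times in perfusion. Reads came bunched from single nuclei, so these ratios are no lower limit on the change. At G14.5 it was read in 35.7% of 224 and 22.7% of 300 thinned nuclei (95% intervals 29.4% to 42.4% and 18.1% to 27.8%), and the 10 nuclei with most reads held 46.6% and 60.8% of its reads. At G0 the count was 0 of 237 and 0 of 181 nuclei, which allows shares of nuclei with a read of up to 1.27% and 1.66% at this depth (3 nuclei of the total) and sets no limit on nuclei that express the gene.

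Serpina10, the inhibitor of activated factor X, was also highest at G14.5. It had 69.2 and 61.9 CPM in the G0 libraries, 129 and 156 CPM in those at G14.5 and 66.8 and 70.7 CPM in the P7L libraries. The G14.5 libraries stood apart, and the G0 and P7L libraries overlapped. The change was 2.17-fold between G14.5 and G0 (log2 1.12 ± 0.18, adjusted p = 0.0098) and -1.05 ± 0.18 on the log2 scale between P7L and G14.5 (adjusted p = 0.0128). Nuclei with reads were 99.1% and 99.0% at G14.5, against 85.7% and 85.1% at G0.

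Serpina12 was rare at every stage and rose more steeply. Its level was 2.78 and 2.82 CPM in the G0 libraries, 16.0 and 22.2 CPM in those at G14.5 and 2.84 and 2.83 CPM in the P7L libraries. This was 6.75-fold higher at G14.5 than at G0 (2.76 ± 0.38, adjusted p = 0.00592), and P7L lay below G14.5 by -2.74 ± 0.38 (adjusted p = 0.00589). Thinned nuclei with reads made up 6.75% and 4.97% in the G0 libraries, 35.3% and 41.0% in those at G14.5 and 15.0% and 18.9% in the P7L libraries. At G0, 10 nuclei held 90.3% and 98.3% of its reads, so that single nuclei decide its level there. Serpina12 is also made by fat cells, and the 5 adipocyte markers summed to 28.8 and 25.4 CPM at G14.5, against 25.5 and 22.7 CPM at G0, with 0 or 1 marker at 0 in a library. Nearly all of that sum was Cidec, a lipid droplet gene, at 28.6 and 25.4 CPM at G14.5, against 25.2 and 22.6 CPM at G0. The part of these markers in the result was not tested.

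**Figure D4:**
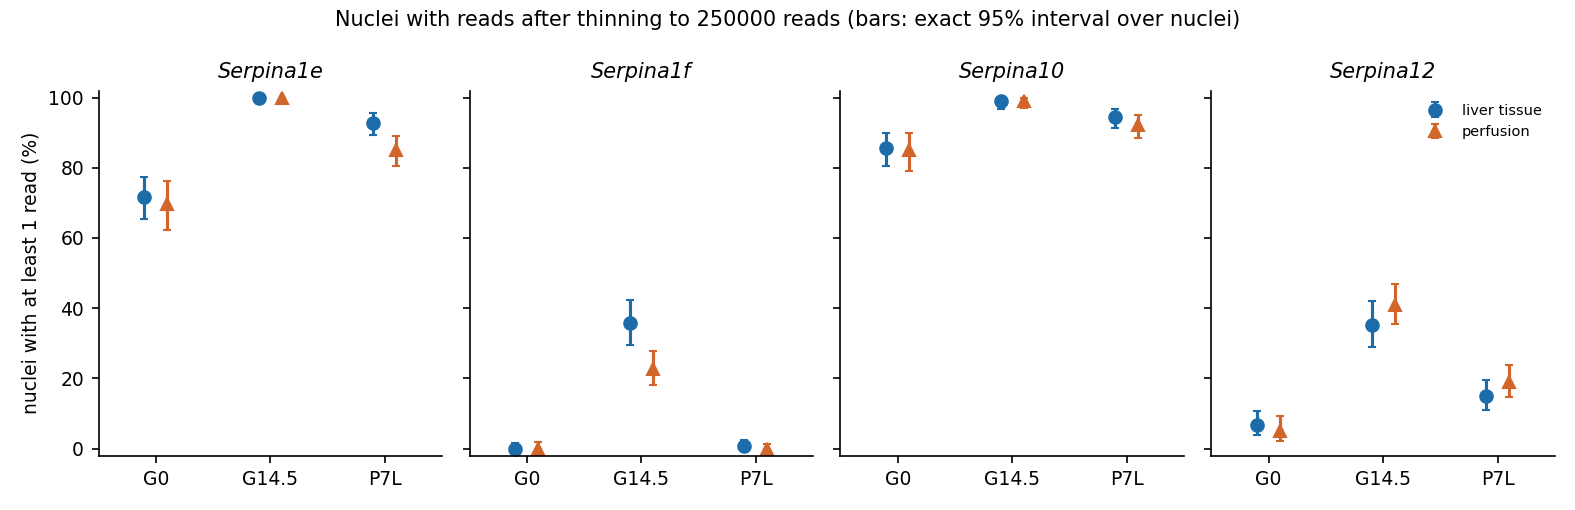
Share of nuclei (%) with at least 1 read after thinning every nucleus to 250000 reads, by stage, for the 4 members that were not read in nearly all nuclei; circles are liver tissue, triangles perfusion and bars exact 95% Clopper-Pearson intervals over nuclei. The G14.5 shares are the highest for each gene, and Serpina1f has 0 nuclei with reads at G0.

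Serpina1f set aside, 5 of the other 6 tested members were higher at G14.5 than at G0 and 0 were lower, with Serpina1c not called. Of all 15015 genes tested, 11.9% were called in this comparison, 6.93% as higher and 5.01% as lower. The median change of the 6 was 0.87 on the log2 scale, against -0.01 over all genes. Leaving out 1 library at G14.5 reduced the count, to 3 without liver tissue (Serpina1e, Serpina10 and Serpina12) and to 2 without perfusion (Serpina1a and Serpina1e), and on the authors' values 3 of the 6 were called (Serpina1e, Serpina10 and Serpina12). Without the G0 perfusion library Serpina1b was not called (0.49, adjusted p = 0.06). In the comparison of P7L with G0, 1 of the 6 was called, Serpina1e, against 2.92% of all genes (1.56% higher). The median there was 0.04, against 0.01 over all genes.

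Between P7L and G14.5, 5 of the 6 were lower and 0 higher, where 9.26% of all genes were called and 5.06% as lower. Their median was -0.82, against 0.00 over all genes. Dropping the G14.5 liver tissue library left 3 (Serpina1e, Serpina10 and Serpina12) and dropping G14.5 perfusion left Serpina1e alone. Dropping P7L liver tissue left Serpina1e and Serpina12, and dropping P7L perfusion left Serpina1e alone. Without either G0 library all 6 were lower, with Serpina1c added. Scaling by library size alone left 3 lower, without Serpina1a and Serpina1b, and it put the median of all genes at 0.20. With Serpina1f, whose difference from G14.5 was built into its entry, counted as well, the main fit had 6 of 7 members lower. That count was 4 with filterByExpr alone and 4 on the authors' values with either pseudocount. Both comparisons with G14.5 share the same 2 G14.5 libraries.

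The preparations were not told apart by these genes. For perfusion against liver tissue, 0 of 7 members were called by edgeR, as were 0 of all 15015 genes (0%). Of all genes, 707 had an unadjusted p under 0.05, and DESeq2 called 85 genes and no member. The largest difference of a copy was that of Serpina1e, at -0.18 ± 0.15 (adjusted p = 0.971), and Serpina1c was close to it at -0.18 ± 0.11 (adjusted p = 0.971).

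Per unit of gene length the order of the members changed with stage. On the authors' length-scaled values (means over nuclei of a signal that sums to 100214 to 134901 per nucleus), Serpina1b led in every library, with 149 and 133 in the G0 libraries, 192 and 187 in those at G14.5 and 128 and 149 in the P7L libraries. Serpina1a had 76.6 and 71.2 at G0 and Serpina1c 61.0 and 50.5, while Serpina1e had 3.13 and 3.31, below the 6.07 and 5.68 of Serpina10. At G14.5 Serpina1e came second, with 132 and 105, before Serpina1a with 97.5 and 92.2 and Serpina1c with 49.4 and 49.0. Serpina1f and Serpina12 overlapped at the bottom there, with 1.43 and 0.930 for Serpina1f and 1.36 and 1.71 for Serpina12. At P7L Serpina1e was at 7.74 and 5.26 and overlapped with Serpina10 at 6.14 and 6.12. Serpina12 was at 0.225 and 0.244 at G0 and 0.267 and 0.258 at P7L.

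Of 47 annotated genes within 250 kb of the stretch, matched to the counts by name, 17 were tested, 10 of them outside the 8 members. Serpina11, annotated between Serpina1e and Serpina12 (chr12:103980243-103989957), is not among them, since the count rows are named Serpina11-1 and Serpina11-2. Those rows are described under other observations. At G14.5, 3 of the 10 tested genes outside the members were higher than at G0 and 0 lower. Of all genes, 6.93% were called higher in that comparison. Serpina6, which encodes corticosteroid-binding globulin and lies between Serpina10 and Serpina1f, had 121 and 118 CPM in the G0 libraries, 3834 and 3625 CPM in those at G14.5 and 103 and 113 CPM in the P7L libraries, a change of 4.96 ± 0.13 on the log2 scale between G14.5 and G0 (adjusted p = 1.77e-05). Ppp4r4, a regulatory subunit of protein phosphatase PP4 next to Serpina10, rose by 1.14 ± 0.17 (adjusted p = 0.00868), and Ifi27l2b by 2.35 ± 0.53 (adjusted p = 0.0317). The pseudogene Gm8895, which lies between Serpina1a and Serpina1c, had 1.53 and 0.930 CPM in the P7L libraries. It had at most 0.150 CPM at G0 and at most 0.0757 CPM at G14.5, and P7L differed from G0 by 4.20 ± 0.82 on the log2 scale. It may have passed the filter through the P7L libraries alone, which would build the difference into its entry, so no p-value is given for it. Gm8895 is annotated as an unprocessed pseudogene, and whether its reads belong to a neighbouring copy was not tested.

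**Figure D5:**
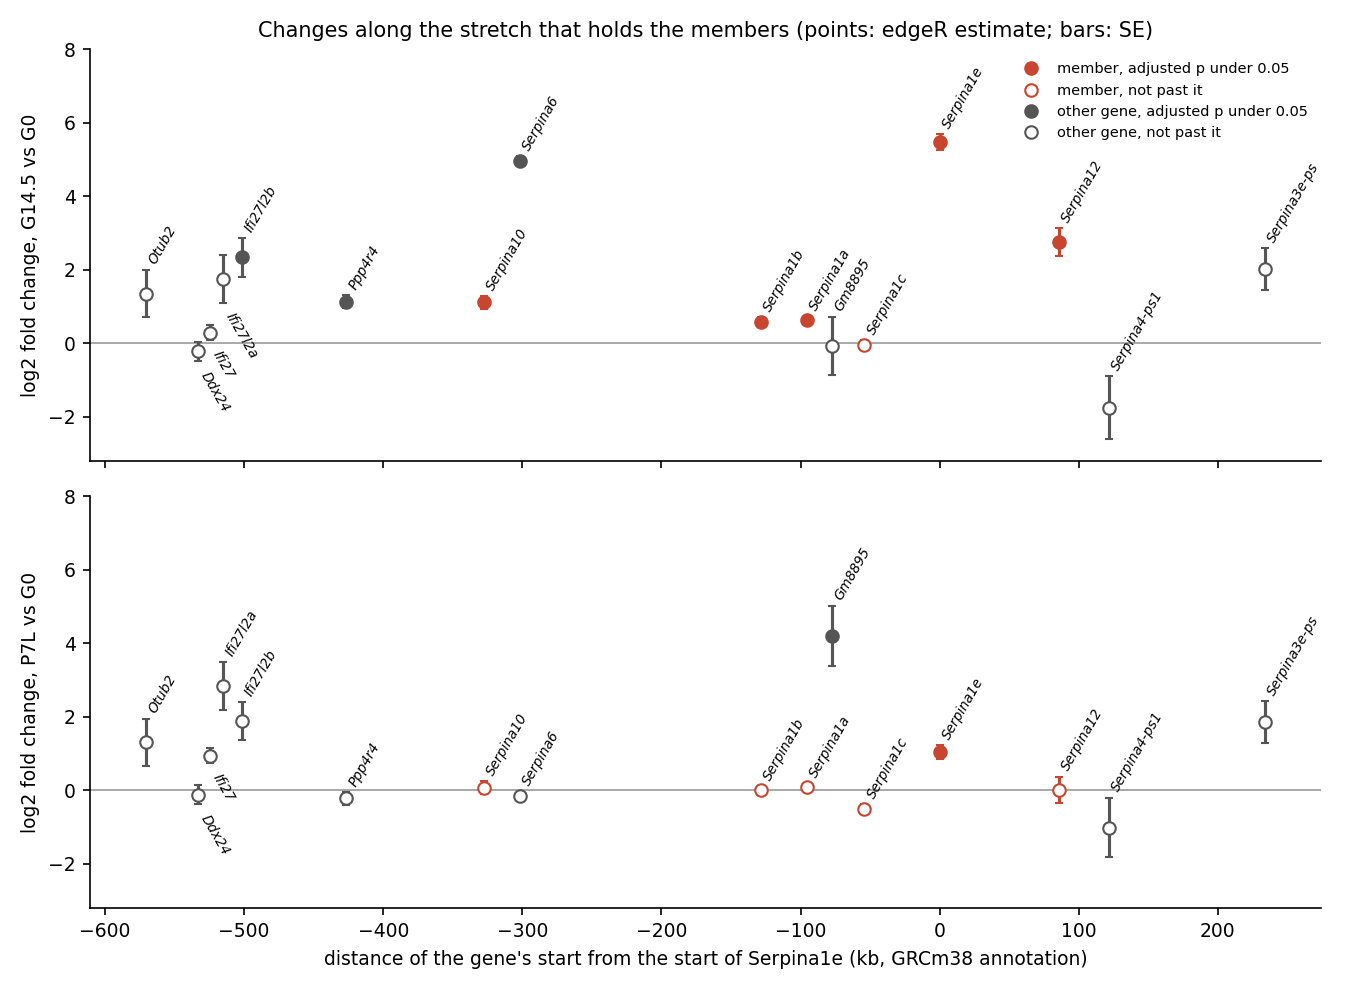
Log2 fold change (points, with SE as bars) of the tested genes along the stretch, for G14.5 against G0 (top) and P7L against G0 (bottom), by distance of the annotated start from that of Serpina1e in kb; filled points have an adjusted p under 0.05, red points are members, and Serpina1f is left out because its G0 libraries are at 0. Serpina1e (5.48) and Serpina6 (4.96) have the 2 highest points at G14.5, with Serpina1c (-0.05) between members that were higher. Genes were matched by name, so the rows named Serpina11-1 and Serpina11-2 are not drawn. Gm8895 may have passed the filter through the P7L libraries alone.

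Alpha-1 antitrypsin is folded in the endoplasmic reticulum and handed to export receptors or to degradation, and 22 genes of these steps were listed. Of the 21 tested, 9 were higher at G14.5 than at G0 and 0 lower, where 6.93% of all genes were called higher. Their median was 0.61, against -0.01 over all genes. Pdia3, a disulfide isomerase for glycoproteins, had 198 and 195 CPM at G14.5, against 66.5 and 82.0 CPM at G0 (1.41 ± 0.17, adjusted p = 0.00359). Edem2, which marks misfolded glycoproteins for disposal, changed by 1.49 ± 0.24 (adjusted p = 0.0101), the chaperone Calr by 1.35 ± 0.22 (adjusted p = 0.0111) and the chaperone Hspa5 by 1.23 ± 0.22 (adjusted p = 0.0147). Between P7L and G0 none of the 21 was called, where 2.92% of all genes were called. Between P7L and G14.5, 9 were lower and 0 higher, where 5.06% of all genes were called lower, among them Pdia3 (-1.77 ± 0.17, adjusted p = 0.00151), Calr (-2.21 ± 0.23, adjusted p = 0.00188) and Canx (-1.02 ± 0.13, adjusted p = 0.00461).

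Of 10 proteases and cofactors that these serpins or their relatives meet, 6 were tested. F10 alone was called at G14.5 against G0, where 11.9% of all genes were called. F10, coagulation factor X and a target of the Serpina10 protein in its active form, had 549 and 505 CPM at G14.5, against 205 and 224 CPM at G0 (1.30 ± 0.13, adjusted p = 0.00179). Proz, the cofactor of the Serpina10 protein, had 145 and 191 CPM at G14.5, against 120 and 103 CPM at G0 (0.57 ± 0.20, adjusted p = 0.104). F11, the other coagulation target, was higher at P7L than at G14.5 (0.74 ± 0.15, adjusted p = 0.0284), with 312 and 301 CPM at P7L, against 158 and 214 CPM at G14.5. In that comparison F10 (-1.01 ± 0.13, adjusted p = 0.00418) and F2, prothrombin (-0.57 ± 0.12, adjusted p = 0.0338), were lower. Among 7 other plasma serpins tested, Serpinc1, which encodes antithrombin, was higher at G14.5 than at G0 (1.59 ± 0.12, adjusted p = 0.000518). Serping1, the complement C1 inhibitor, was lower (-0.84 ± 0.18, adjusted p = 0.0288). Of all genes, 6.93% were called higher and 5.01% lower in that comparison.

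Of 10 listed liver transcription factors, all tested, 1 was called at G14.5 against G0 (11.9% of all genes were). This was Foxa3, with 225 and 200.5 CPM at G14.5, against 126 and 79.2 CPM at G0 (1.06 ± 0.24, adjusted p = 0.0314). At P7L, Hnf4a was lower than at G0 (-0.73 ± 0.13, adjusted p = 0.0369). This was the 1 call among these factors, where 2.92% of all genes were called. Between P7L and G14.5, 3 were lower and 0 higher, where 9.26% of all genes were called: Foxa3 (-1.66 ± 0.24, adjusted p = 0.0073), Hnf4a (-0.76 ± 0.13, adjusted p = 0.0137) and Onecut1 (-2.73 ± 0.62, adjusted p = 0.0367). Of 12 regulators of growth hormone and sex-biased expression, which include receptors upstream of STAT5, 2 were higher at G14.5 against G0. Of all genes, 6.93% were called higher there. Prlr, the prolactin receptor, had 10939 and 13117 CPM at G14.5, against 1887 and 1445 CPM at G0 (2.86 ± 0.16, adjusted p = 0.000176), and the growth hormone receptor Ghr changed by 2.12 ± 0.10 (adjusted p = 9.53e-05). Between P7L and G0, 0 of the 12 were higher and 3 lower, Prlr among them (-1.49 ± 0.15, adjusted p = 0.00823). Of all genes, 1.56% were called higher and 1.36% lower there. No test linked these genes to the members, and binding of the listed factors to Serpina1 promoters was not tested.

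Within a lobule, hepatocytes differ from the central vein to the portal tract, and the members were compared between the most pericentral and the most periportal of 3 equal groups of nuclei in each library, ranked by 9 pericentral and 11 periportal genes. No member passed an exact two-sided sign-flip permutation test over the 6 libraries, in which 6 members had values and the smallest possible p is 0.03125. After adjustment over the 6 members, a member alone at that smallest p could not have fallen under 0.05. The lack of a call therefore does not show that a member is even across the lobule. Serpina1c was lower in the pericentral group in 5 of 6 libraries, with a mean log2 ratio of -0.40 ± 0.32 (SD, n = 6, exact p = 0.0625, adjusted p = 0.188). Serpina12 was also lower in 5 of 6, and at G14.5 it had 8.60 and 6.42 CPM in the pericentral group, against 24.3 and 34.3 CPM in the periportal group. Over all 6 libraries its mean log2 ratio was -2.04 ± 2.32 (SD, n = 6, exact p = 0.0938, adjusted p = 0.188), a spread as wide as the mean. The lowest ratio, -6.01 in G0 perfusion, came from 2 pericentral and 111 periportal reads, so its pericentral side lay under the floor of 3 reads. Serpina10 was higher in the pericentral group in 3 of 6 libraries. With the nuclei ranked by Cyp2e1 and Cyp2f2 alone, Serpina1a, Serpina1b and Serpina1c were each lower in the pericentral group in 6 of 6 libraries (exact p = 0.03125, the smallest possible; adjusted p = 0.0625). The ranking genes themselves moved with stage: of 11 periportal genes 5 were lower and 0 higher at G14.5 against G0, and of 8 pericentral genes tested 3 were lower and 0 higher. Their part in these values was not tested.

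Within libraries, the copies had mostly positive correlations over nuclei, and those with the other members lay near 0. Over the nuclei of 1 library, Spearman's rho between 2 copies ran from 0.03 to 0.54 with a median of 0.31 over 36 values, in thinned reads. Between a copy and Alb, the albumin gene, it ran from 0.20 to 0.66 with a median of 0.41. For a copy with Serpina1f, Serpina10 or Serpina12 it lay between -0.16 and 0.13. These nuclei share a library, and copies may share reads, so the values are descriptions only and the weak ones are no finding.

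By pattern over the 6 libraries, measured as the root mean square difference of centred log2 CPM, the genes most like Serpina1e were Nptx1 (0.23), Slc41a2 (0.29), Cga (0.30), Cib4 (0.35) and Prom1 (0.42). Cib4 (0.55) was also among the 5 nearest to Serpina1f, with Kif12 (0.49), Efhb (0.55), Serpina1e (0.78) and Vwf (0.78). The nearest to Serpina10 were Fgfr2 (0.07), Dnali1 (0.08), the coagulation factor F7 (0.08), Slc37a3 (0.09) and Arhgap18 (0.10). Serpina12 was nearest to Cped1 (0.14), Tpm2 (0.19), Arsg (0.20), Abhd2 (0.20) and Creld2 (0.22). Serpina1a was nearest to Nelfa (0.04), Spag7 (0.06), Ralgps2 (0.06), Dennd1a (0.06) and Uty (0.07). Serpina1b was nearest to Hmgcll1, Eif4g3, Slc25a45, Spag7 and Serpina1a (0.07 each), and Serpina1c to Rbm10 (0.03), Il18rap (0.05), Rfx3 (0.06), Rpl7a (0.06) and Tfap2d (0.06). Some of these genes had few reads. Over the 6 libraries Uty had 0.406 to 0.768 CPM, Hmgcll1 0.150 to 0.291 CPM and Il18rap 0.0436 to 0.146 CPM. Nptx1 had 0 and 0.00398 CPM in the G0 libraries. The likeness is a description over 6 values and was not tested.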

How the data were processed

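Raw read counts per gene and nucleus are the authors' deposited values, and the submitters' processing notes name Trimmomatic 0.39, HISAT2 2.1.0, featureCounts 1.5.3 and GRCm38 (mm10). Strand use and the handling of reads that fit several places are not given in the sources used here. Per the labels' protocols, single hepatocytes were picked, while the titles name nuclei and 2 preparations. A deposited length-scaled signal (100214 to 134901 in all per nucleus, as worked out from the values) served to compare levels between genes. Because molecules carry no counted identifier here, reads of 1 molecule can repeat, and intervals and floors (3 reads) cover counting error only. No nucleus was left out of the sums, and doublets were not searched for.

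Counts were added up per library. Tests took genes that passed filterByExpr by stage and were read in 5% or more of the nuclei in 2 or more libraries. The main test was edgeR 4.0.16's quasi-likelihood F test (R 4.3.3, TMM factors), with stage and preparation as terms and 2 residual degrees of freedom. It was also run on simulated counts that had the same dispersion for every gene and no preparation effect. That run checks the code and does not show how the test performs on the spread of these libraries. Calls are two-sided, at a Benjamini-Hochberg adjusted p under 0.05 over 15015 genes. A second fit replaced the copies by their sum. Alternatives were RLE factors, library size alone, other filters, no preparation term, thinned nuclei, DESeq2 1.42.0, limma-voom (limma 3.58.1), limma on log2 of the authors' signal plus 1 or 0.1, and each library left out. Replicate 1 of a stage is the liver tissue library and replicate 2 the perfusion library, so a replicate block equals the preparation term.

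The members and gene lists were chosen with earlier results of these data known. The rule for named genes took the members, called genes within 250 kb, up to 4 genes of smallest p per list and comparison, and the 5 genes most like each member; not all are printed. Serpina9, Serpina3k and the rows named Serpina11 were chosen after their values were seen. Sequences come from GENCODE M21 transcripts and RefSeq promoters (GRCm38.p6; 7 of 8 members matched by symbol). A result for 1 gene of the list of growth hormone and sex-bias regulators is not reported here.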

Additional observations from a re-analysis of the deposited data

Results flagged for a closer look

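For 3 single genes and the summed copies, the change went one way in liver tissue and the other way in perfusion. With 1 library per stage and preparation, these differences between preparations were not tested. At P7L against G0, Serpina1b had a log2 ratio of 0.159 in perfusion and -0.177 in liver tissue. Serpina10 had 0.192 in perfusion and -0.0510 in liver tissue in that comparison, and the summed copies Serpina1a to Serpina1e had 0.0680 in perfusion and -0.154 in liver tissue. At G14.5 against G0, Serpina1c had 0.0434 in perfusion and -0.135 in liver tissue. None of the 4 was called with both preparations together.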

How the results depend on the processing

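No called result changed sign under the alternatives run, though values that were not called did so in 2 of 124 at G14.5 against G0, 13 of 124 at P7L against G0 and 11 of 124 for perfusion against liver tissue, and Serpina1e was called at G14.5 against G0 and at P7L against G14.5 in 16 of 16. The replicate block equals the preparation term: leaving it out (no replicate block) changed no member's call, and the sum of the copies for perfusion against liver tissue became -0.0135, or -0.0153 with library size alone. Genes called at G14.5 against G0 were 3410 by DESeq2, 1128 with the authors' values plus 1, and 653 to 1942 with 1 library left out, with 2 to 6 members (Serpina1f included here) called. At P7L against G0 they were 1901 by DESeq2, 92 with filterByExpr alone, 227 with no filter, 4 and 205 with the authors' values plus 1 and plus 0.1, and 37 to 669 with 1 library left out. Members called there were 2 by DESeq2 (Serpina1e higher, Serpina1c lower), 0 with filterByExpr alone, with no filter, by limma-voom and with the authors' values plus 1 or 0.1, and 0 to 1 with 1 library left out. At P7L against G14.5, DESeq2 called 2631 genes, and leaving out 1 library gave 421 to 2431, with 1 to 7 members. For perfusion against liver tissue DESeq2 called 85. The summed copies at P7L against G0 had 0.0405 with library size alone and -0.165 to 0.0875 with 1 library left out. At P7L against G14.5 they had -1.07 to -0.813, and for perfusion against liver tissue -0.0703 to 0.0724. The cause was not tested. With 2 libraries per stage, a call lost with 1 left out also has fewer samples behind it. Counts of members under the alternatives include Serpina1f where it was tested, and its entry through the filter rested on the G14.5 libraries.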

Other observations

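Serpin genes of clade A outside the 8 members moved in both directions. Serpina7, which encodes thyroxine-binding globulin, had 25 and 13 reads (0.0894 and 0.0378 CPM) at P7L, against 3.27 and 2.86 CPM at G0. Its log2 fold change was -5.60 ± 0.83 by edgeR. With 13 reads in 298 perfusion nuclei it could not have passed the filter through the P7L libraries alone. Its entry rested on libraries in which it is high, so no p-value is given for it. Serpina3m was lower at G14.5 than at G0 (-0.87 ± 0.17, adjusted p = 0.0181) at 57.4 and 61.1 CPM, against 96.5 and 121 CPM. Serpina3k was listed at 0 in every library. Serpina9, which was not tested, had 1 and 2 reads in the G0 libraries, 303 and 889 in those at G14.5 and 72 and 16 in the P7L libraries. A row named Serpina11-1 had 10.3 and 8.54 CPM in the G0 libraries, 27.8 and 22.3 CPM in those at G14.5 and 3.66 and 2.39 CPM in the P7L libraries. It was called higher at G14.5 than at G0 (1.40 ± 0.31, adjusted p = 0.0288), lower at P7L than at G0 (-1.67 ± 0.31, adjusted p = 0.0409) and lower at P7L than at G14.5 (-3.07 ± 0.33, adjusted p = 0.00215). A second row, Serpina11-2, was not tested, and how the authors split the gene is not given in the sources used here. Serpina11 is annotated between Serpina1e and Serpina12, and neither row was part of the counts of neighbouring genes above.

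The relation of Serpina6 to the copies over nuclei differed by stage as a description: Spearman's rho between a copy and Serpina6 ran from -0.27 to -0.03 in the G0 libraries, from 0.22 to 0.51 in those at G14.5 and from -0.10 to 0.15 in the P7L libraries, over 8 values each. Copies may share reads, and no test was made.

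Of 14 male-biased liver genes tested, 1 was higher and 1 lower at G14.5 against G0. In each of the other stage comparisons 1 was higher and 0 lower. Of all genes, 11.9% were called at G14.5 against G0, 2.92% at P7L against G0 and 9.26% at P7L against G14.5. Of 10 hepatocyte markers, 3 were higher and 2 lower at G14.5 against G0, where 11.9% of all genes were called. Alb was higher at P7L than at G0 (0.97 ± 0.13, adjusted p = 0.0222), and Ahsg (-0.91 ± 0.12, adjusted p = 0.0188) and Hnf4a were lower. At P7L against G14.5, 1 marker was higher and 5 lower, where 9.26% of all genes were called. Among the 7 marker lists of other cell types, 1 cholangiocyte gene was lower at G14.5 against G0, and no other gene of these lists was called between stages.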
